A study of Mus musculus with 18 samples.

Results

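The contacts of the Slc25a37 promoter zone were described across chr14:69600000-70300000 (mm9), as read in the NG Capture-C libraries that were enriched for enhancers. NG Capture-C cuts crosslinked chromatin with DpnII, ligates the ends that lie together, and pulls down the ligation products of a chosen piece of DNA (the viewpoint), so that each other fragment is counted by how often it was joined to it. The members were all DpnII fragments of that stretch in the Slc25a37 columns. Of 1813 fragments there, 7 formed the zone without values that marks a viewpoint, 1583 carried a value and 223 had none, against 627505 fragments listed over all viewpoints of the enhancer capture. Members therefore differ in position only and were not chosen by their values.

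Each of the 3 cell types had 3 libraries, which the methods call biological replicates. Embryonic stem cells (ESC) of strain 129/Sv//EV were taken at day 0. Definitive endoderm (DE) came from embryoid bodies of the same strain at day 5, after activin A and EGF. Erythrocytes, labelled day 5, came from spleens of C57BL/6 mice treated with phenylhydrazine, which destroys red cells and so fills the spleen with red cell precursors. In every comparison with erythrocytes the strain changed with the cell type, and the effects of these cannot be told apart. No expression was measured in these libraries, so the cell types could not be checked by marker genes.

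Slc25a37 encodes mitoferrin-1, a carrier of the inner mitochondrial membrane that brings iron to the site of haem and iron-sulphur cluster synthesis. It is known for its high expression in developing red cells. A promoter meets distal elements within a stretch of the chromosome by folding of the chromatin fibre, and contact falls steeply with distance from the viewpoint in every cell type. What is read here is an average over many cells, so a contact made in fewer cells and a contact made less often per cell cannot be told apart.

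The label calls this an enhancer viewpoint, and the values went against it. The zone without values ran from 69902161 to 69904393 (2233 bases) and held the start of Slc25a37 at 69903160, with 999 bases of the zone on the side of the gene body and 1233 bases upstream. The promoter capture of the same libraries had the identical zone. A longer run without values, of 6595 bases at chr14:69727768-69734362, was not taken for the viewpoint: only 879 reads lay within 20 kb of it against 14398 around the start, and 66 of 66 stretches of 36 bases from it recurred elsewhere on the chromosome, against 0 of 22 from the zone at the start. The viewpoint was therefore read as the Slc25a37 promoter itself, captured again beside the enhancers. Contact of an enhancer with that promoter, the quantity the label promises, could not be measured, since the start lay inside the zone.

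Some sequences are printed from NCBIM37 (mm9), 5′ to 3′. They are stretches of at most 300 bases, on the plus strand, from 4 fragments of the region upstream of the gene. The first was called higher in erythrocytes against DE and not against ESC, and the others against both, as described further on. Those others reached the minimum of 10 reads against ESC only through erythrocytes, so their calls against ESC are no support. The first was picked by its erythrocyte mean, so its call against DE is no support either. Each stretch was placed to hold the most matches to the motif, and otherwise near the middle of its fragment. They lie at chr14:69922790-69923089, chr14:69923721-69924020, chr14:69937357-69937656 and chr14:69937870-69938169, in no annotated gene. Capitals mark AGATAA, searched on both strands (TTATCT on the other), a form of the site bound by GATA1, the main transcription factor of red cell precursors.
fragment 69922731 to 69923658, part: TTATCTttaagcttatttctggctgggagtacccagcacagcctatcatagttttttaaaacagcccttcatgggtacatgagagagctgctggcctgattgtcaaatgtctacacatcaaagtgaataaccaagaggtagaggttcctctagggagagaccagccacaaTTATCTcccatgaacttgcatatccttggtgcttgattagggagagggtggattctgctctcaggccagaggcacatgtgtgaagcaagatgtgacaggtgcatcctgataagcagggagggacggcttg
fragment 69923659 to 69924084, part: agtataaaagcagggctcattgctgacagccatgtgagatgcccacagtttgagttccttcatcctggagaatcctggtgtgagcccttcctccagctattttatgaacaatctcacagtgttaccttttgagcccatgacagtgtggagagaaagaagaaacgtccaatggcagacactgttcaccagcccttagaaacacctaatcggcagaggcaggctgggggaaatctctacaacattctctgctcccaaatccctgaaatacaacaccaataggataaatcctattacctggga
fragment 69937333 to 69937682, part: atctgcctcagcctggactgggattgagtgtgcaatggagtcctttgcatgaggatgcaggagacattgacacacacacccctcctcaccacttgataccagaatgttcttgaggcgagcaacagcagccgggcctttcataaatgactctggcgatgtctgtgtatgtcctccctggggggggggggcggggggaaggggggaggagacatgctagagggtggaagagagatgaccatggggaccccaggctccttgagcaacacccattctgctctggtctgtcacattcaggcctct
fragment 69937683 to 69938358, part: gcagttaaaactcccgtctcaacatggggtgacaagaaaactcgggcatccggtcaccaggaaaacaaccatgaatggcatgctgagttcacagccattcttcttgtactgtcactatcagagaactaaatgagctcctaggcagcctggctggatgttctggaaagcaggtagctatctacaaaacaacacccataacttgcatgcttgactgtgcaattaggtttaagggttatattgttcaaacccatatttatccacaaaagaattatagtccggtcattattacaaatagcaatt
The first of these fragments held 2 matches and the other 3 held 0. The first is 928 bases long. Of 2333 tiles of 300 bases across the window, 15.0% held a match, and of 140 bins of 5 kb 91.4% held at least 1, with a median of 3. The tiles were not placed by matches and differ in length from whole fragments, so their share is no like-for-like background for the fragments. The fragments 69938735 to 69939526 and 69939527 to 69940379 of the same region, not printed, held 2 and 0. They missed the threshold against ESC by less than the first printed fragment did (limma, adjusted p = 0.0540 and 0.0566 against 0.133). Of the bins named below, the 3 that rose held 4, 3 and 0 matches and those that fell 1 to 4. A match is a description of the letters only.

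Depth differed among the cell types and limits what could be seen in erythrocytes. The zone gave 6615 to 13634 interactions per library in ESC, 18360 to 37628 in DE and 3711 to 25671 in erythrocytes. On chr14 itself the erythrocyte libraries held 7610, 2405 and 1132 reads. All values below were rescaled to 100000 interactions on chr14 in each library, and on that scale 1 read was worth 13.1, 41.6 and 88.3 in erythrocyte replicates 1 to 3, against 4.91 to 29.2 in ESC and DE. Erythrocyte replicate 2 had 64.8% of its interactions on chr14, and replicates 1 and 3 had 29.6% and 27.1%. In erythrocyte replicate 3, 15.7% of the chr14 reads lay within 1 kb of the zone on the side of the gene body, against at most 3.94% in the other 8 libraries, so its values beside the zone stand apart. The 3 erythrocyte libraries differed from each other by 1.80 to 8.22 times the counting noise (chi-square per degree of freedom over 5 kb bins), against 1.21 to 1.39 within ESC and 1.35 to 1.57 within DE. The enhancer and promoter captures of a single library differed by 1.23 to 1.49 in ESC, 1.17 to 1.55 in DE and 1.01 to 1.37 in erythrocytes, so by this measure replicates of ESC and of DE lay about as close as repeats of a library. They were counted as separate samples, as labelled.

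The share of chr14 interactions that stayed in the window was 50.4%, 51.0% and 50.4% in ESC, 42.1%, 41.5% and 39.6% in DE, and 53.1%, 57.6% and 69.2% in erythrocytes. No erythrocyte library overlapped with either other cell type, and the highest DE library was lower than the lowest of ESC. The means were 50.6% ± 0.366 (SD, n = 3), 41.1% ± 1.29 (SD, n = 3) and 60.0% ± 8.30 (SD, n = 3). Wilson 95% intervals of single libraries ran from 38.6% to 42.8% over DE from 48.7% to 52.1% over ESC and from 51.9% to 71.8% over erythrocytes, so that those of erythrocyte replicate 1 and ESC overlapped. They cover counting error only. Erythrocytes were 9.38 percentage points above ESC and 18.9 above DE, and the difference of DE from ESC was -9.50 points (exact permutation test, two-sided, p = 0.1 for each, the smallest p that 3 against 3 allow). Without erythrocyte replicate 3 the differences were 4.77 points from ESC and 14.3 from DE. With the 20 kb to each side of the zone left out, the difference from ESC was 0.434 points (exact permutation p = 0.9), and scaled to all interactions it turned to -3.79 points, while that from DE was 8.22 and 2.17 points. Scaled to all interactions, erythrocyte libraries ran from 15.7% to 37.3% and DE libraries from 20.4% to 22.5%, so they overlapped.

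Contact of the promoter zone fell with distance in ESC and DE, and in erythrocytes up to 200 kb. On the Entpd4 side the erythrocyte value per kb was 7.31 ± 3.86 at 100 to 200 kb and 8.06 ± 2.39 at 200 to 400 kb (SD, n = 3). Within 20 kb on the side of the gene body, the value per kb was 578 ± 25.1 in ESC, 414 ± 21.0 in DE and 1023 ± 480 in erythrocytes (SD, n = 3). At 200 to 400 kb on the same side it was 11.8 ± 0.391, 15.6 ± 0.399 and 2.72 ± 0.956. The erythrocyte mean was thus 1.77 times that of ESC close to the zone and 0.230 times at the far end, where it rested on 73 reads. On the other side, towards Entpd4, the ratios to ESC were 1.69 at 0 to 20 kb, 0.610 at 50 to 100 kb, 0.177 at 100 to 200 kb and 0.341 at 200 to 400 kb. Of the 30 comparisons of side, distance and cell types, 26 had no overlap between libraries. None passed the threshold, since the exact permutation test allows no p under 0.1 (adjusted p = 0.115 at the lowest, 30 comparisons).

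On the Entpd4 side the ratio of erythrocytes to ESC was higher at 20 to 50 kb than closer to the zone. The erythrocyte value itself was still below the 700 ± 163 per kb (SD, n = 3) at 0 to 20 kb. At 20 to 50 kb the value per kb was 397 ± 77.4 in erythrocytes, 158 ± 6.42 in ESC and 136 ± 3.51 in DE, which is 2.51 and 2.92 times as much in erythrocytes. On the side of the gene body the same distance gave 186 ± 20.9, 153 ± 8.90 and 108 ± 8.45. Of the reads at 20 to 100 kb, 62.3%, 68.9% and 66.3% lay on the Entpd4 side in erythrocytes, against 50.3% to 53.9% in ESC and 52.2% to 54.8% in DE. The mean share was 65.8% ± 3.29 in erythrocytes (SD, n = 3), 51.8% ± 1.85 in ESC and 53.2% in DE. Erythrocytes did not overlap with either (exact permutation p = 0.1 for each), while ESC and DE overlapped (exact permutation p = 0.4).

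**Figure D1:**
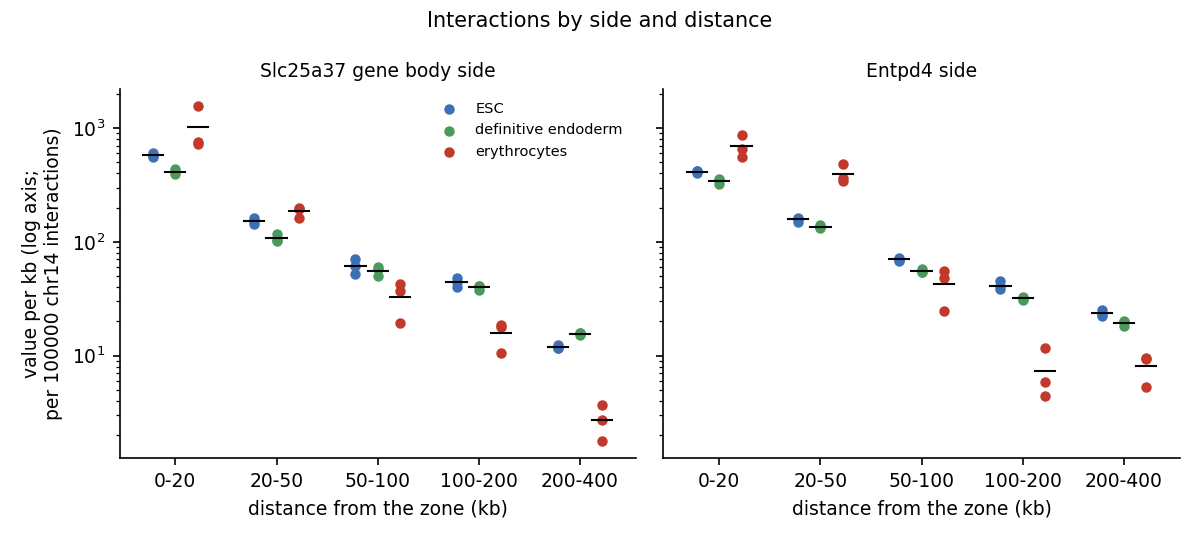
Value per kb (log axis, per 100000 chr14 interactions) against distance from the zone without values, on each side; points are the 3 libraries of each cell type and bars their means. Erythrocytes lie above ESC and DE up to 50 kb on the Entpd4 side and below them from 100 kb on both sides.

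The region with higher contact in erythrocytes lay between 2 genes, D930020E02Rik, an uncharacterised gene whose start is 7.96 kb from the zone, and Entpd4, an intracellular nucleotide hydrolase gene whose start is 50.8 kb away. This stretch (chr14:69912356-69955208, 42.9 kb, 106 fragments) was picked out after its values were seen and is given without a test. Its value was 7907, 7997 and 7892 in ESC, 7262, 7019 and 6958 in DE, and 16505, 21040 and 17668 in erythrocytes. The lowest erythrocyte library was above every ESC and DE library, and the means differed 2.32-fold from ESC and 2.60-fold from DE, while the DE mean was 0.893 times that of ESC. These values rest on 1479, 3419 and 1962 reads.

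The test was also made over 5 kb bins. Against ESC, 3 of 130 bins tested in the window were higher in erythrocytes and 40 were lower (limma on the log2 value, adjusted p under 0.05), and against DE 9 of 138 were higher and 49 lower. The same test over all named regions and bins of chr14 called 1.74% higher and 34.8% lower against ESC, and 2.22% higher and 43.7% lower against DE, so the 30.8% and 35.5% of bins of the window that were lower lie below the chromosome's share. Higher bins made up 2.31% of the window against ESC, near the chromosome's share, so that count is no result about the window. Against DE they made up 6.52%. All 3 bins that rose against ESC lay between D930020E02Rik and Entpd4, as did 6 of the 9 against DE. The other 3 of the 9 lay in the gene body of Slc25a37, at 4.66, 19.7 and 39.7 kb from the zone. The counts leaned on single libraries: against ESC 0, 2, 12 and 23 bins were called without ESC replicate 1, 2 or 3 or erythrocyte replicate 3, and against DE 24, 20 and 26 without DE replicate 1, 2 or 3. With edgeR 10 bins were higher and 53 lower than in ESC, and 15 higher and 37 lower than in DE.

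The bin at chr14:69920001-69925000, 18.1 kb upstream of the zone, had values of 739, 694 and 468 in ESC, 846, 884 and 771 in DE, and 2602, 2536 and 3710 in erythrocytes. All erythrocyte libraries were above all others. The log2 difference was 2.21 ± 0.456 (SE) from ESC (limma, adjusted p = 0.0151) and 1.79 ± 0.341 from DE (adjusted p = 0.00983).

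The bin at chr14:69935001-69940000, 33.1 kb away, had values of 791, 814 and 789 in ESC, 737, 825 and 866 in DE, and 2904, 4116 and 3269 in erythrocytes. It held the highest mean of the region, 3430 ± 622 (SD, n = 3). The log2 difference was 2.07 ± 0.422 (SE) from ESC (limma, adjusted p = 0.0149) and 2.06 ± 0.334 from DE (adjusted p = 0.00787), and ESC and DE differed by 0.02 ± 0.358.

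The bin beside it, chr14:69940001-69945000, had values of 855, 975 and 702 in ESC, 551, 575 and 517 in DE, and 2852, 4116 and 2915 in erythrocytes. Erythrocytes were above every other library, as the naming rule required, and DE was below every ESC library. The log2 difference was 1.94 ± 0.439 (SE) from ESC (limma, adjusted p = 0.0188) and 2.55 ± 0.338 from DE (adjusted p = 0.00661).

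Between and beyond these bins the difference was smaller. The bins at 23.1 and 28.1 kb had erythrocyte means of 1727 and 1468 against 769 and 663 in ESC, and were higher than DE (limma, adjusted p = 0.0282 and 0.0389) without passing against ESC (0.0646 and 0.0984). At 48.1 kb, next to the start of Entpd4, the means were 801 in ESC, 658 in DE and 566 in erythrocytes, and at 58.1 kb they were 312, 304 and 311. No excess was left at the bin before the Entpd4 start. Against DE the 3 bins stayed past the threshold under all 21 alternatives run. Against ESC, they lost it without ESC replicate 1 (adjusted p = 0.0727, 0.0727 and 0.0854) and without ESC replicate 2 (0.0678, 0.0678 and 0.0725), with log2 differences between 1.96 and 2.33, and the bin at 38.1 kb also when scaled to all interactions, without a read minimum and with the replicate block. Without erythrocyte replicate 3 the differences from ESC were 2.03, 2.10 and 2.02.

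**Figure D2:**
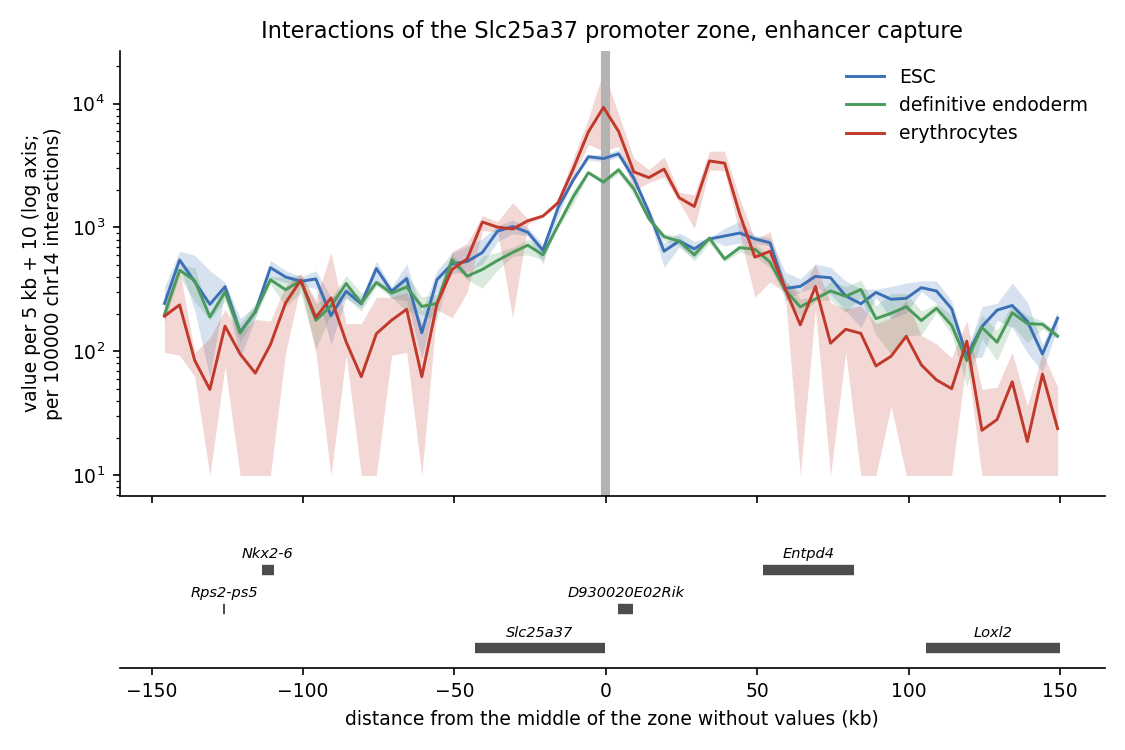
Mean value per 5 kb (plus 10, log axis, per 100000 chr14 interactions) against distance from the middle of the zone, with the span of the 3 libraries shaded and gene bodies drawn below. The erythrocyte line is highest at the zone (9294 in its bin) and stands above ESC and DE at the bins 18.1, 33.1 and 38.1 kb away, with means of 2949, 3430 and 3294, and lies below them at 48.1 kb.

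At the bins 18.1, 33.1 and 38.1 kb away, the promoter capture of the same libraries gave the same picture from a separate pulldown of the same zone. There the 3 bins had erythrocyte means of 2623 ± 400, 3098 ± 594 and 3359 ± 342 (SD, n = 3), against 839 ± 198, 924 ± 190 and 695 ± 38.6 in ESC. By their labels both captures came from the same libraries, so this is a technical repeat and no new sample.

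**Figure D3:**
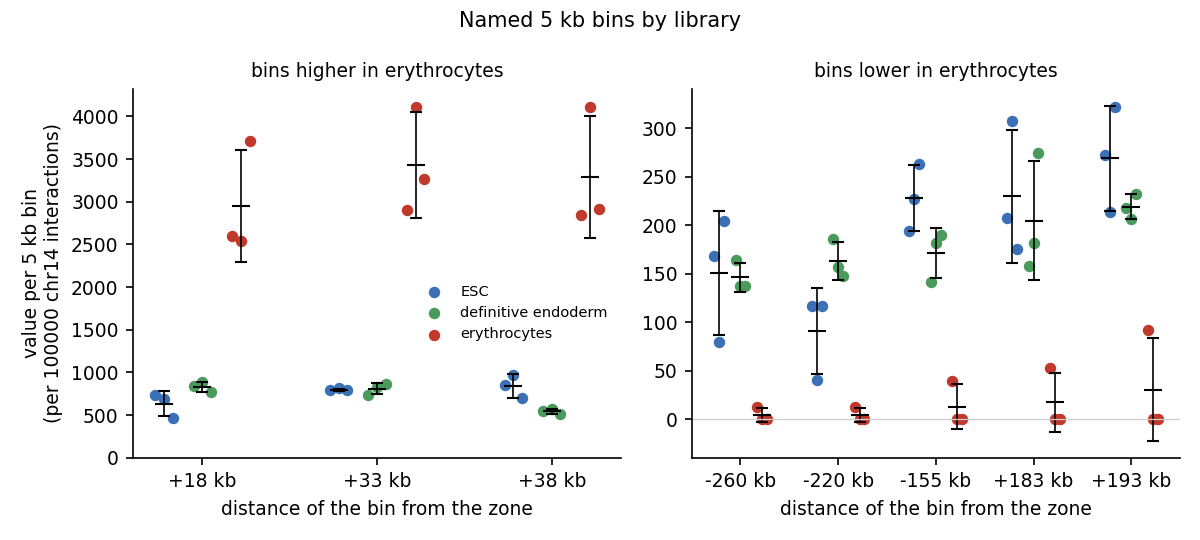
Value per 5 kb bin (per 100000 chr14 interactions) in each library for the bins named by rule, with mean and SD, higher bins on the left and lower bins on the right; + is towards Entpd4 and - towards the gene body, by the middle of the bin. Erythrocyte libraries lie between 2536 and 4116 in the higher bins and between 0 and 92.0 in the lower bins.

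At the level of single fragments, 11 of 327 members tested differed between erythrocytes and ESC, 4 higher and 7 lower (limma, adjusted p under 0.05). Every chr14 fragment with enough reads lay in the window in that comparison, so the share over the chromosome was the same, 1.22% higher and 2.14% lower. Against DE 128 of 579 differed, 30 higher and 98 lower, where 5.04% of chr14 fragments were higher and 17.6% lower. The direction of these calls moved with the scaling and the test. Against ESC, TMM scaling gave 2 higher and 8 lower, size factors of DESeq2 2 and 9, scaling to all interactions 2 and 0, and a total without 20 kb around the zone 10 and 8, while edgeR on the recovered reads gave 40 and 12. The median log2 difference of the members tested against ESC was 0.04, and TMM scaling, DESeq2 size factors, all interactions and the total without 20 kb moved it to -0.31, -0.54, -0.29 and 0.26. Against DE, edgeR gave 56 higher and 2 lower, so most single fragments called lower there were not called on the reads. Leaving out erythrocyte replicate 2 or any ESC library left 2 fragments against ESC, both higher, and leaving out erythrocyte replicate 2, DE replicate 1 or DE replicate 2 left 1 against DE, while without erythrocyte replicate 1 there were 29 and 247. Without DE replicate 3, 67 were called against DE.

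The 4 fragments higher than ESC were also called higher than DE. All 4 reached the read minimum against ESC only through erythrocytes, so none of their tests against ESC is support. The 4 were 69937333 to 69937682, 69937683 to 69938358 and 69923659 to 69924084, whose letters are printed above, and a fragment close to the zone described below. The fragment 69937333 to 69937682, 32.9 kb from the zone, had 276, 291 and 442 in erythrocytes and 49.1, 63.9 and 10.6 in DE, and 0 reads in each ESC library. Over the group, 0 of 18626 ESC reads allows a value of up to 16.1, and the erythrocyte mean of 336 was 20.9 times that. The mean weighs each library alike and has its own counting error, so this ratio is no lower bound. The fragment passed the read minimum against ESC only through its 33 erythrocyte reads, so its test against ESC is no support. Its promoter-capture reads were 26 in erythrocytes, 4 in ESC and 5 in DE. Its neighbour 69937683 to 69938358 had 263, 166 and 265 in erythrocytes against 0 to 29.5 in the other 6 libraries. The fragment 69923659 to 69924084 had 237, 333 and 353 in erythrocytes against 16.4 to 58.5. The neighbour held 27 erythrocyte reads against 3 in ESC and 12 in DE, and the fragment 69923659 to 69924084 held 30 against 7 and 13.

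Of the 5 members with the highest erythrocyte mean farther than 5 kb from the zone, 3 lay in the same region. These were 69939527 to 69940379 with 692 ± 374, 69922731 to 69923658 with 665 ± 497 and 69938735 to 69939526 with 589 ± 170 (SD, n = 3), against ESC means of 101, 124 and 93.8. Each was higher than DE (limma, adjusted p = 0.0255, 0.0323 and 0.0227) and missed the threshold against ESC (0.0566, 0.133 and 0.0540). They were picked by their erythrocyte mean, so these tests are no support. The ranking used values per fragment, and these 3 are 853, 928 and 792 bases long, against a median of 252 in the window. The other 2, 69895888 to 69896448 and 69894841 to 69895249, lay in the gene body of Slc25a37, with erythrocyte means of 786 ± 244 and 522 ± 189 against 377 and 244 in ESC. Neither passed in either comparison.

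Some members carried reads in erythrocytes alone, and they were singled out after the values were seen. The fragment chr14:69907220-69907550, which overlaps the end of D930020E02Rik 2.83 kb from the zone, had 29, 14 and 11 reads in the erythrocyte libraries and 0 in each of the 6 ESC and DE libraries. The promoter capture gave 52 reads in erythrocytes and 0 in ESC and DE. Its values were 381, 582 and 972 in erythrocytes. Their mean of 645 was 40.0 times the 16.1 that 0 ESC reads allow and 104 times the 6.23 for DE. The mean weighs each library alike and has its own counting error, so these ratios are no lower bounds. The fragment passed the read minimum only through erythrocytes, so no p is given. The fragments on either side were well covered in every cell type: the left had 71, 163 and 94 reads in ESC, DE and erythrocytes, and the right 61, 100 and 54. Its left end (chr14:69907218-69907247, plus strand, NCBIM37), with the DpnII site in capitals, is shown because the reference genome has the site there.
fragment 69907220 to 69907550, first 30 bases from its site: GATCacaagcacctctaaacatatccagtc
The fragments chr14:69934338-69934534 and chr14:69934535-69934598, next to each other in the region upstream, likewise had 13 and 7 erythrocyte reads and 0 in ESC and DE, and 24 and 12 against 0 in the promoter capture. A fragment present in C57BL/6 libraries and absent from all 129/Sv//EV libraries cannot be assigned to cell type or to strain. In the other direction, 1 member, chr14:69996295-69997591, had 40 reads in ESC and DE together and 0 in erythrocytes.

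**Figure D4:**
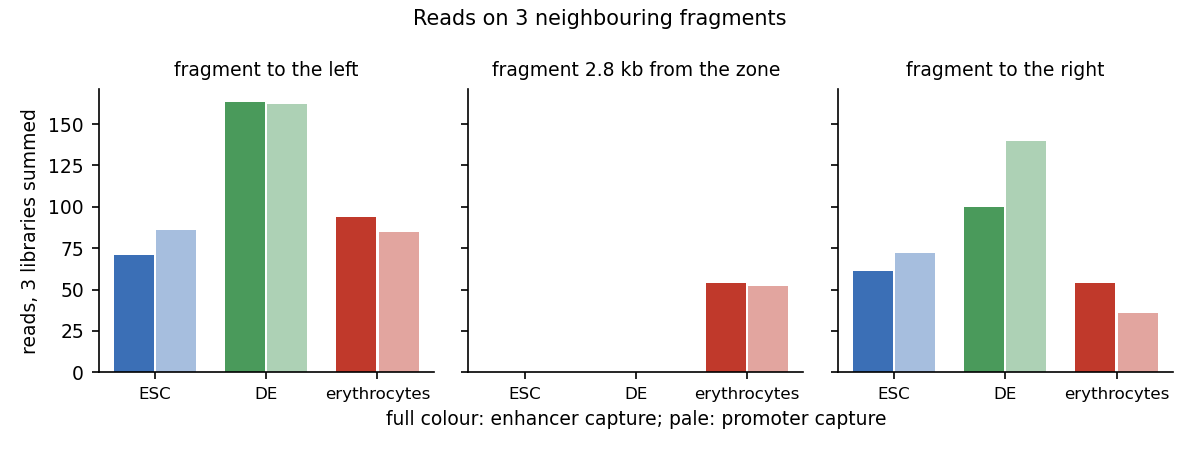
Reads summed over the 3 libraries of each cell type on the fragment 2.83 kb from the zone and its neighbours, in the enhancer capture (full colour) and the promoter capture (pale). The middle fragment has 54 and 52 reads in erythrocytes and 0 in ESC and DE, while both neighbours have 36 or more reads in every cell type and capture.

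Among the neighbouring genes, 12 protein-coding genes with their start in the window were tested, by the fragments within 1 kb of the start and by the gene body. The nearest, D930020E02Rik, differed little at its promoter, with 1063, 1135 and 1315 in ESC, 1048, 914 and 908 in DE, and 880, 1289 and 1237 in erythrocytes. Erythrocytes overlapped both other cell types there (log2 difference from ESC -0.06 ± 0.433 (SE), limma, adjusted p = 0.919). The Entpd4 promoter, at the far end of the region with higher contact, had 130, 307 and 263 in ESC, 186, 206 and 158 in DE, and 302, 291 and 0 in erythrocytes. Erythrocyte replicate 3 had 0 reads there, and no difference was detectable at this depth (limma, adjusted p = 0.461 and 0.558).

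At the gene body of Slc25a37 the value was 15710, 15327 and 14762 in ESC, 11572, 10566 and 10221 in DE, and 19974, 19875 and 35689 in erythrocytes. All erythrocyte libraries were above the others and DE was lowest. The log2 difference was 1.17 ± 0.381 (SE) from DE (limma, adjusted p = 0.0460) and 0.66 ± 0.460 from ESC (adjusted p = 0.266). The call against DE was lost without any single library other than erythrocyte replicate 1 (adjusted p between 0.0605 and 0.115). Without erythrocyte replicate 3, the library with the reads beside the zone, the difference was 0.89. In all, 12 of 21 alternatives lost this call (adjusted p up to 0.152). They included TMM scaling, DESeq2 size factors, scaling to all interactions and a pseudocount of 2. No read minimum, all 3 cell types in the fit and the replicate block lost it too.

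Over gene bodies, 6 of 12 neighbours were lower in erythrocytes than in ESC and 5 lower than in DE, and none was higher. Over all regions and bins of chr14, 34.8% and 43.7% were lower, so the count against DE lies near the share of the chromosome. Loxl2, which encodes an enzyme that crosslinks collagen and starts 105 kb away, had 3163, 3618 and 2543 in ESC, 2477, 2716 and 2576 in DE, and 920, 416 and 442 in erythrocytes. The libraries did not overlap, and the log2 difference was -2.45 ± 0.505 (SE) from ESC and -2.21 ± 0.421 from DE (limma, adjusted p = 0.0151 and 0.00983). Pebp4, a gene of the phosphatidylethanolamine-binding family that starts 336 kb away and runs past the window, had 2398, 2710 and 2777 in ESC, 2221, 2181 and 2143 in DE, and 631, 333 and 265 in erythrocytes. Its log2 difference was -2.75 ± 0.496 (SE) from ESC and -2.48 ± 0.421 from DE (limma, adjusted p = 0.0124 and 0.00787). Both genes lost the call against ESC without ESC replicate 1 (adjusted p = 0.0727 for each) or ESC replicate 2 (0.0726 and 0.0678). In the promoter capture Pebp4 lost its call against both cell types (limma, adjusted p = 0.0740 against DE).

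The other gene bodies called against both cell types were Stc1, the hormone stanniocalcin-1, 255 kb away on the other side of Slc25a37 (erythrocyte mean 69.6 against 260 in ESC and 340 in DE), R3hcc1 (418 against 1284 and 929) and Rhobtb2 (172 against 716 and 520). Against ESC each of these 3 lost the call without any single ESC library (adjusted p between 0.0530 and 0.119), and against DE R3hcc1 and Rhobtb2 lost it without any single library other than erythrocyte replicate 1 (0.0536 to 0.104), while Stc1 kept it throughout. R3hcc1 and Rhobtb2 also lost it against both cell types in the promoter capture. Stc1, however, held only 8 erythrocyte reads, against 52 in ESC and 158 in DE. It reached the read minimum of 10 only through ESC or DE, so its calls are no support. Rps2-ps5, the remaining gene of the 6, had 0 erythrocyte reads against 13 in ESC and 11 in DE. It passed the read minimum only through ESC, so its call is no support. The homeobox gene Nkx2-6, 113 kb away, was not called. It had 118, 166 and 0 in erythrocytes against 351 to 534 in ESC and 316 to 368 in DE, with no overlap (limma, adjusted p = 0.0727 and 0.0969). Chmp7, of the membrane-remodelling ESCRT-III complex, and Tnfrsf10b, a death receptor, had erythrocyte means of 311 and 123 against 564 and 539 in ESC and were not called either.

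**Figure D5:**
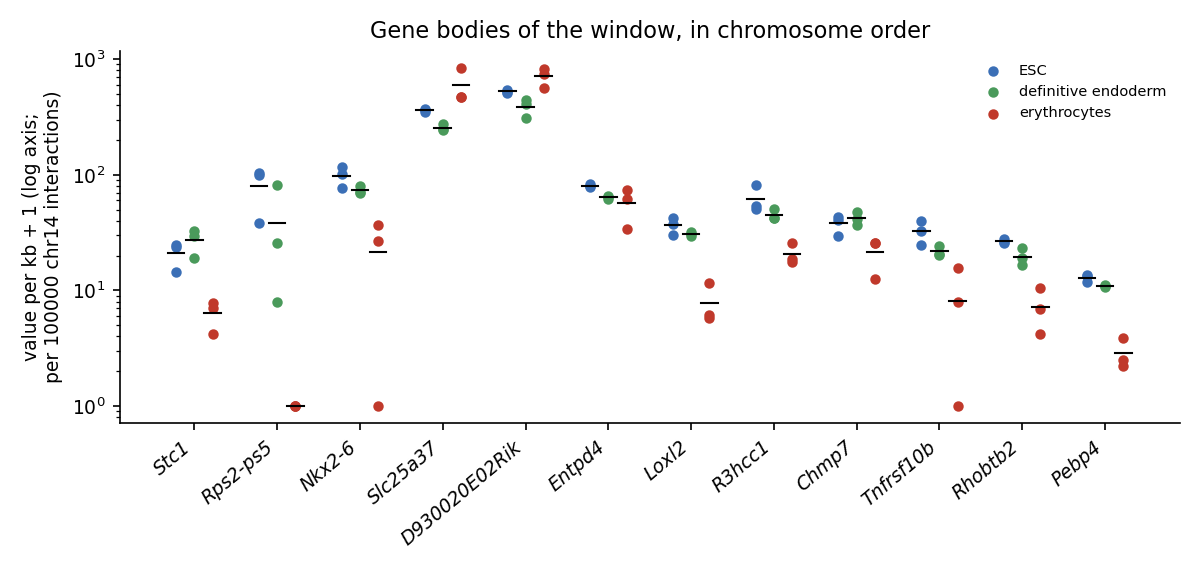
Value per kb of gene body plus 1 (log axis, per 100000 chr14 interactions) for Slc25a37 and 11 neighbouring protein-coding genes with a start in the window, in chromosome order; points are libraries and bars their means. Slc25a37 and D930020E02Rik have the highest values and are highest in erythrocytes, while Loxl2, Rhobtb2 and Pebp4 are lowest in erythrocytes with no overlap. D930020E02Rik was not called (limma, adjusted p = 0.430 against ESC and 0.0857 against DE). Its erythrocyte mean of 3824 includes 645 from the fragment 69907220 to 69907550, which had reads in erythrocytes alone.

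At promoters the erythrocyte counts were too small for firm statements. Of 11 neighbour promoters tested against ESC and 12 against DE, those of Stc1, Loxl2 and Rhobtb2 were lower in each comparison and none was higher (limma, adjusted p under 0.05), a smaller share than the 34.8% and 43.7% of all regions and bins of chr14 that were lower. They had 1, 3 and 1 erythrocyte reads in all, against 16, 23 and 10 in ESC and 21, 31 and 24 in DE, and reached the read minimum through ESC or DE. The ratio of the summed reads per chr14 read to ESC was 0.104 for Stc1, with an exact 95% counting interval of 0.00249 to 0.672, and 0.218 for Loxl2 (0.0419 to 0.721). For Rhobtb2 it was 0.167 (0.00385 to 1.17), and against DE all 3 intervals reached above 1. Stc1 lost the call against ESC without ESC replicate 1 or 2, Loxl2 without erythrocyte replicate 3 or any ESC library and Rhobtb2 without erythrocyte replicate 3 (adjusted p between 0.0517 and 0.0917). Against DE, Stc1 lost it without erythrocyte replicate 2 or 3 or DE replicate 2 or 3, Loxl2 without any library but erythrocyte replicate 1 and Rhobtb2 without DE replicate 2 (0.0558 to 0.142). Against DE edgeR called 0 of them (adjusted p between 0.105 and 0.252).

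The bins named as falling most likewise reached the read minimum through ESC or DE and held few erythrocyte reads. At chr14:69745001-69750000, 155 kb away on the gene body side in no annotated gene, ESC had 194, 227 and 263 and erythrocytes 39.4, 0 and 0. At chr14:70085001-70090000 within Loxl2 and Gm16867, 183 kb away, the values were 207, 307 and 175 in ESC, 158, 182 and 275 in DE, and 52.6, 0 and 0 in erythrocytes. Ratios of summed reads to ESC were 0.122 (exact 95% counting interval 0.0242 to 0.383) and 0.149 (0.0388 to 0.407). The bin chr14:70095001-70100000, over the ends of Loxl2 and R3hcc1, had 7 erythrocyte reads, all in replicate 1, and a ratio of 0.244 (0.0930 to 0.542). Against DE the bins named were chr14:69640001-69645000 and chr14:69680001-69685000, 260 and 220 kb away, each with 1 erythrocyte read, and the bin in Loxl2. The bins at 155, 183 and 193 kb lost their call against ESC without any single ESC library (adjusted p between 0.0577 and 0.117), those at 183 and 193 kb also without erythrocyte replicate 3 (0.0507 and 0.0696), that at 193 kb without erythrocyte replicate 2 (0.0551), and the bin in Loxl2 against DE without any single DE library (0.0569 to 0.0672). The ratios of summed reads to DE, in the order 260, 220 and 183 kb, were 0.0608 (0.00152 to 0.350), 0.0540 (0.00135 to 0.310) and 0.188 (0.0501 to 0.497).

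Outside 50 kb, the strongest bins of ESC and DE were shared. After the bin at the start of Entpd4 (743 in ESC and 516 in DE), the highest means were at 140 kb on the gene body side, with 538 ± 84.9 in ESC and 442 ± 46.6 in DE, and at 110 kb over Nkx2-6, with 465 ± 78.1 and 369 ± 28.3 (SD, n = 3). Erythrocytes had 228 and 104 in these bins. Their own highest bin after the Entpd4 start was at 99.7 kb on the gene body side, with 366 ± 45.0, where ESC had 358 and DE 362.

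DE lay below ESC without overlap in the share of the window, and in 8 of 10 classes of side and distance their libraries were apart. The ratio of DE to ESC was 0.717 at 0 to 20 kb and 0.709 at 20 to 50 kb on the gene body side, and 1.32 at 200 to 400 kb there. No single fragment, region or bin passed the threshold in limma (0% of 771 fragments and 0% of 754 regions and bins on chr14, in either direction), with 61 fragments and 3 bins of the window at an unadjusted p under 0.05. The tests on recovered reads called 5 fragments and 9 bins lower in DE with edgeR and 3 fragments and 9 bins with DESeq2, and none higher. Among those 9 bins were the 3 at 4.66, 9.66 and 14.7 kb on the gene body side, whose DE means were 2756, 1758 and 1029 against 3714, 2395 and 1435 in ESC. At the gene body of Slc25a37 the DE mean was 10786 ± 702 against 15266 ± 477 in ESC, with no overlap and a log2 difference of -0.50 ± 0.357 (SE) that limma did not call (adjusted p = 0.693).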

How the data were processed

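Values were read in 18 samples, an enhancer capture and a promoter capture of 9 libraries. According to the submitters' processing notes the reads were handled with Trim Galore and Bowtie on mm9, with versions not stated in those notes. Deposited values were a signal, the interactions of a viewpoint per DpnII fragment, that the authors had scaled in each column. Each was a whole multiple of the worth of 1 read for 100% of the values of every column used (tolerance 0.05), so reads were recovered. Of 108 columns, the 18 of Slc25a37 were used and 90 were not. Fragments were placed on a DpnII digest of NCBIM37, which matched 83313 of 83313 listed fragments of chr14.

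Columns were rescaled to 100000 interactions on chr14 and tested as log2(value + 10) with limma 3.58.1 in R 4.3.3, between the 2 cell types compared, for fragments and separately for named regions and 5 kb bins with at least 10 reads. All log2 differences include the added 10 and so shrink for low values. Benjamini-Hochberg adjustment ran over chr14, at a threshold of 0.05. On the recovered reads, edgeR 4.0.16 called 52 fragments of the window between erythrocytes and ESC, 58 between erythrocytes and DE, and 5 between DE and ESC, and DESeq2 1.42.0 was a further alternative. Single values were compared by exact permutation (Python 3.11.15, scipy 1.17.1). The tests were checked on simulated data with the same spread in all libraries, so a wider spread in erythrocytes was not simulated. Bins were named if among the 3 with the largest log2 difference in each direction, past the threshold, without overlap between libraries and over 5 kb from the zone; genes if protein-coding with a start in the window (1 of these is not reported here); fragments if among the 5 with the highest erythrocyte mean over 5 kb away. Members and lists were chosen with earlier results of these data known. Reads carry no molecular identifiers, so 95% intervals and the limit that a count of 0 allows (3 reads) cover counting error only.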

Additional observations from a re-analysis of the deposited data

How the results depend on the processing

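The fragments called between erythrocytes and ESC (11) numbered 2 when scaled to all interactions, 18 with a total without 20 kb around the zone, 20 with a pseudocount of 50, 83 with no read minimum, 52 with edgeR, 18 with DESeq2, 41 with all 3 cell types in the fit, 43 as 5 kb bins and 2 to 29 with single libraries left out. Those between erythrocytes and DE (128) numbered 76 when scaled to all interactions, 23 with a pseudocount of 50, 58 with edgeR, 38 with DESeq2, 59 with all 3 cell types, 58 as bins and 1 to 247 with single libraries left out. Between DE and ESC (0) they numbered 1 with a pseudocount of 2, 5 with edgeR and 3 with DESeq2, and 0 without any single library. With the replicate number as a block (replicate block) 2 fragments were called against ESC and 1 against DE; same-numbered libraries correlated between -0.106 and 0.0572 in their deviations, so the numbers do not pair them. Neighbour promoters called against ESC (3) numbered 5 when scaled to all interactions, with a pseudocount of 50 or with all 3 cell types, 6 with no minimum, 0 with DESeq2 and 0 to 5 with single libraries left out. Against DE (3) they numbered 1 with no minimum, 0 with edgeR, 0 with DESeq2 and 0 to 3 with single libraries left out. Between DE and ESC (0), edgeR and DESeq2 called 1 each. The share in the window between erythrocytes and ESC turned to -3.79 percentage points (exact permutation p = 0.6) when scaled to all interactions, and was 4.77 to 12.8 points with single libraries left out. The share against DE was 14.3 to 22.3 points with single libraries left out. Scaled to all interactions it was 2.17 points, with libraries that overlapped. That of DE against ESC was -10.0 to -8.77 with single libraries left out. Alternatives chosen after seeing the data were the promoter capture (53 fragments against ESC), both captures summed (150 against ESC, 391 against DE, 1 promoter against DE) and edgeR on that sum (134 against ESC, 9 for DE against ESC). The cause of these moves was not tested. Promoter contact, its ratio to fragments at the same distance and the reverse contact were not run, since the start lies in the zone without values. Depth limits erythrocytes most, where 1 read of replicate 3 was worth 88.3.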
